A study of Mus musculus with 30 samples.

Results

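The genes followed here encode the machinery that cuts proteins into peptides and loads them onto MHC class I molecules. The 10 genes on the list were chosen by name: the inducible proteasome subunits Psmb8, Psmb9 and Psmb10, the proteasome activator genes Psme1 and Psme2, the peptide transporter genes Tap1 and Tap2, the loading factor Tapbp, the trimming peptidase Erap1 and the light chain B2m. Of these, 9 were tested, out of 13089 genes tested in all. The array has no probe set for Psme2 alone, only 1 that it shares with Psme2b, so no value is given to Psme2 itself. RNA came from whole lungs of untreated and treated C57BL/6 mice, with 1 animal on each of 30 Affymetrix arrays. The juveniles were aged 21 days and the adults 16 weeks. In both age groups, controls were untreated and breathed spontaneously. LPS animals breathed an aerosol of lipopolysaccharide of E. coli 0111:B4, a bacterial cell wall component that triggers innate immunity, for 30 min (20 mL at 0.1 mg/mL) and then breathed spontaneously for 2 h. MV animals were mechanically ventilated for 2 h at a tidal volume of 15 mL/kg with 30% oxygen and a positive end expiratory pressure of 2 cmH2O. LPS+MV animals received the aerosol and then the same ventilation. Each group had 4 animals, except 3 in juvenile MV and 3 in juvenile LPS+MV. The labels give no study period for the controls, which were neither placed in the chamber nor ventilated. The series asks whether the lung's response to these insults depends on age.

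Every nucleated cell shows peptides of its own proteins on MHC class I, where cytotoxic T cells read them. The proteasome makes the peptides, the TAP transporter carries them into the endoplasmic reticulum, and a loading complex fits them onto a heavy chain bound to beta-2 microglobulin. Interferon gamma replaces the constitutive catalytic subunits Psmb5, Psmb6 and Psmb7 in newly made proteasomes by Psmb8, Psmb9 and Psmb10, which gives the immunoproteasome. In lung, leukocytes hold much of the immunoproteasome at rest, and epithelial cells express it during inflammation.

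Promoter windows of 300 bases, from 250 before to 50 after an annotated start, were taken from RefSeq (GRCm38.p6) for 9 of the 10 genes. Tap2 has no entry in that table. Psmb9, Tap1, Psmb8 and Tap2 follow one another in this order on chromosome 17, and Tap1 and Psmb9 point away from each other. Their annotated starts are 226 bases apart, so the Tap1 window (chr17:34187306-34187605, plus strand) and the Psmb9 window (chr17:34187281-34187580, minus strand) share 275 bases. The windows below are shown because Tap1 shares its window with Psmb9, and B2m and Psmb8 carry searched motifs. Those of Psmb10 and Erap1 are shown because, on brightest probe sets, Psmb10 varied most among the groups and Erap1 least. All windows run 5′ to 3′ along the gene. Capitals mark an interferon regulatory factor (IRF) core, GAAANNGAA, a STAT-type GAS element, TTCNNNGAA, or a kappa B site, on either strand.
Tap1 (chr17:34187306-34187605, plus strand): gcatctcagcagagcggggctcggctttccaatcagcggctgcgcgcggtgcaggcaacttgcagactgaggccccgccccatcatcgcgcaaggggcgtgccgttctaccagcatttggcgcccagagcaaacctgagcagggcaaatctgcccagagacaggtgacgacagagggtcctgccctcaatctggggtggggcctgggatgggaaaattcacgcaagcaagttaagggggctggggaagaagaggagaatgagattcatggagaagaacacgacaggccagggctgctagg
B2m (chr2:122147437-122147736, plus strand): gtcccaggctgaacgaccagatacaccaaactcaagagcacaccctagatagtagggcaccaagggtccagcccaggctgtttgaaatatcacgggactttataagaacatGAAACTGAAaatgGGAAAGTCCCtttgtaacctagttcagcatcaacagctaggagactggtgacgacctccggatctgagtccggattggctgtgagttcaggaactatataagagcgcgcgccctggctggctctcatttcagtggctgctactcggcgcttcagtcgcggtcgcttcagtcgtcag
Psmb8 (chr17:34197945-34198244, plus strand): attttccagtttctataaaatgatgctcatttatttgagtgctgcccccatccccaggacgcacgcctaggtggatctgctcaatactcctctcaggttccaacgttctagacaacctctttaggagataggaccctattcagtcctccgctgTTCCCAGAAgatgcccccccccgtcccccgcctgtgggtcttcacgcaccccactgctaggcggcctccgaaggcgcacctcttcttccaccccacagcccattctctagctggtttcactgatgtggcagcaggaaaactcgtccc
Psmb10 (chr8:105938343-105938642, minus strand): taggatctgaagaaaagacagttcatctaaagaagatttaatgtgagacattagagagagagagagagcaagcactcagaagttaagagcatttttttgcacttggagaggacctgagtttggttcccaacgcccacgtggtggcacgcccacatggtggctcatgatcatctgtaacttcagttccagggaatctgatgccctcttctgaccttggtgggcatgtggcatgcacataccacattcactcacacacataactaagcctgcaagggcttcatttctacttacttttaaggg
Erap1 (chr13:74639603-74639902, plus strand): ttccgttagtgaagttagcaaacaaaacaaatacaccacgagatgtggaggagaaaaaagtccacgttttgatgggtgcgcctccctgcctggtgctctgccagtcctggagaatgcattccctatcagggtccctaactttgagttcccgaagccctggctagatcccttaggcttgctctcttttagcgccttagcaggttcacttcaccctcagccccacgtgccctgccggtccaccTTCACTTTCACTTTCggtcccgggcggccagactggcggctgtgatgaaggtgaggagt

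In B2m the IRF core lies at -139 to -131 from the start and the kappa B site at -126 to -117, with no overlap. Psmb8 has a GAS element at -97 to -89. Erap1 has 2 overlapping IRF cores, at -9 to -1 and at -3 to 6, and Psme1 has 1 at 11 to 19. The searched letters for these motifs are not in the windows of Tap1, Psmb9, Psmb10 or Tapbp. A CCAAT box, searched as CCAAT, is shared by Tap1 (-222 to -218) and Psmb9 (-8 to -4), which are the same 5 bases of the genome, and others lie in B2m and Tapbp. Of 10 windows of 9 listed genes (Psme2 has 2), 3 held an IRF core, 1 a GAS element, 1 a kappa B site and 4 a CCAAT box. Among all 32851 windows of this length the shares were 8.56%, 8.3%, 4.51% and 37.4%. These matches describe letters and say nothing of binding.

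The values are probe set intensities, in the arrays' own units, as deposited. They were compared as log2(intensity + 32), which makes changes of dim genes look smaller. A change below is a log2 fold change on that scale ± its standard error (SE) from limma, a linear model fitted to all 30 arrays. Folds given beside a change are of values with 32 added, whereas ratios of group means are of intensity. A gene passed when its p, adjusted by Benjamini and Hochberg over all 13089 genes, was under 0.05, and only such genes are said to have risen or fallen. Each gene is read from its brightest probe set, and levels of different genes are not compared. The number of arrays limits the precision. Lung epithelial markers were bright on all arrays. The surfactant genes Sftpc and Sftpb were at 18120 to 22160 and 2710 to 7071, the club cell gene Scgb1a1 at 16680 to 23540, and the alveolar genes Ager and Aqp5 at 7119 to 12680 and 804 to 1873. Of these 5, 2 fell with MV and 3 each with LPS and LPS+MV in adults, against 1 with LPS and none with MV or LPS+MV in juveniles. Over all genes, 24.3% fell with MV, 23% with LPS and 27.3% with LPS+MV in adults. In juveniles these shares were 6.45%, 13.3% and 20.5%. In whole lung RNA, more or fewer cells of a type and more or less RNA per cell cannot be told apart. The labels give no sex, and the X-inactivation transcript Xist marked arrays unequally: in juveniles it was high on 1 of 4 arrays of controls, 1 of 3 of MV, 0 of 4 of LPS and 2 of 3 of LPS+MV. In adults it was high on 4 of 4 arrays of MV and 3 of 4 of LPS+MV, and on 0 of 4 of controls and 0 of 4 of LPS.

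One array stood apart for the genes followed here. In juvenile MV replicate 2, Tap1 was at 312, against 98.9 and 71.6 in the other 2 animals of its group. Psmb9 was at 443 there, against 197 and 121. Psmb8 was at 665, against 334 and 247. The same array was high for some natural killer and T cell transcripts. The cytotoxic granule gene Gzma was at 1397, against 61.1 and 53.0, and the CD8 gene Cd8b1 at 123, against 36.7 and 30.0. Nlrc5, the transactivator of class I genes, was at 112, against 22.8 and 16.0. The summed level of 4 natural killer markers (Ncr1, Klrd1, Gzma and Prf1) reached 1578 on this array, where the lowest array of its group was at 123 and the juvenile controls lay between 124 and 183. Gzma alone made up most of that sum, and Prf1 was at 32.2, against 20.9 and 22.1. Of the T cell markers, Cd3d was also high, at 212 against 99.7 and 69.8. Other markers of the same lists kept to narrow ranges over all 30 arrays, this one included. Cd3e was at 89.1 to 121.5, Cd4 at 42.6 to 65.0, the other CD8 gene Cd8a at 24.0 to 47.8 and Ncr1 at 13.2 to 27.7. The markers of these cells therefore did not move as a set. The part of natural killer and T cells in the class I values was not tested. This array also enters the spread that all groups share in the fit. Where leaving it out changes how many of the genes pass, both counts are given. The array was noticed through values of these same genes, so the second counts are favoured by that choice. Without it, the SE of Tap1 with LPS in juveniles went from 0.21 to 0.13. The second counts are therefore not separate support, and the share of all genes is not a like measure for them.

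**Figure D1:**
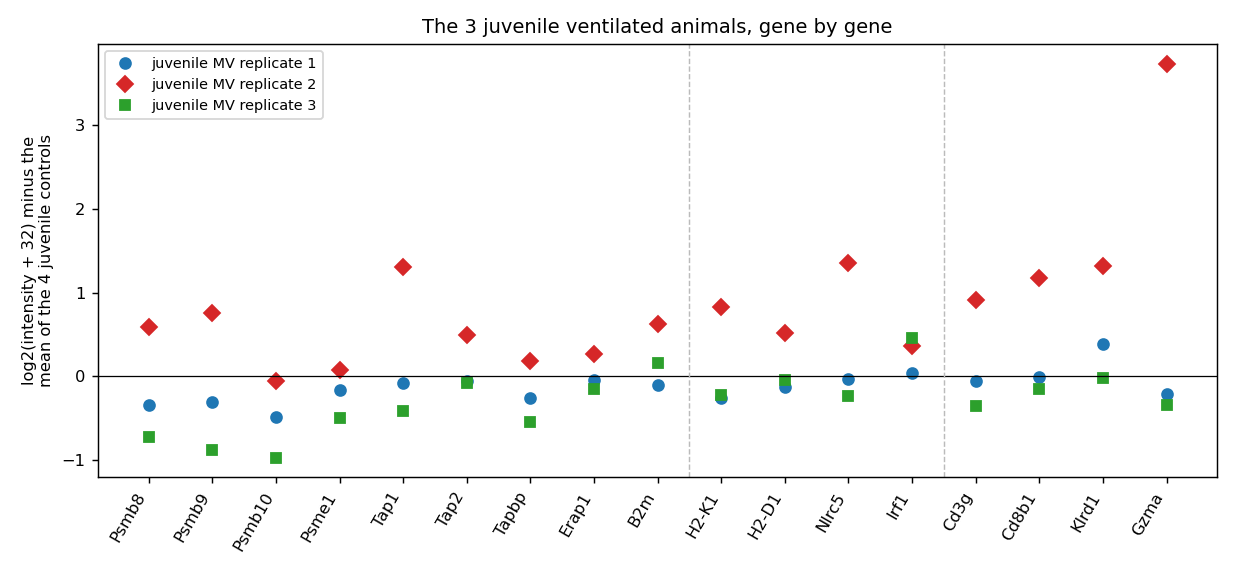
Each point is 1 of the 3 juvenile MV arrays, as log2(intensity + 32) minus the mean of the 4 juvenile controls on that scale, for the class I processing genes (left), heavy chains and regulators (middle) and selected lymphocyte genes (right). Replicate 2 lies above the other 2 arrays for each gene shown except Irf1, and reaches 3.73 for Gzma and 1.31 for Tap1. Other tested markers of T and natural killer cells, such as Cd3e, Cd4, Cd8a and Ncr1, are not shown.

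Inhaled LPS alone raised 5 of the 9 genes in juvenile lungs within hours: Tap1, Psmb10, Psmb8, Tap2 and Tapbp. No gene fell. Over all genes tested, 9.58% rose and 13.3% fell in this comparison. The median change of the 9 genes was 0.41, against -0.03 over all genes.

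Among the inducible catalytic subunits, Psmb10 (the trypsin-like subunit MECL-1) had intensities of 465, 482, 481 and 436 in juvenile controls and of 780, 715, 890 and 834 after LPS. All 4 LPS arrays were above all controls. It rose by 0.74 ± 0.13 (adjusted p = 7.64e-05), or 1.68-fold. Psmb8 (the chymotrypsin-like subunit LMP7) had 471, 455, 418 and 383 in controls and 688, 582, 826 and 812 after LPS, again without overlap. Its rise was 0.70 ± 0.16 (adjusted p = 0.00213), or 1.63-fold. Psmb9 (LMP2) was at 283, 243, 258 and 222 in controls and at 310, 306, 391 and 381 after LPS. Its groups did not overlap, yet the difference of 0.41 ± 0.19 did not pass (adjusted p = 0.121). Psme1 encodes the alpha subunit of the PA28 activator, a cap that opens the proteasome. It was at 1088 ± 73 (SD, n = 4) in controls and 1277 ± 55 (SD, n = 4) after LPS, a difference of 0.23 ± 0.09 that did not pass (adjusted p = 0.0738).

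Tap1 and Tap2 encode the subunits that pair to form the transporter. Tap1 was at 92.3, 110, 106 and 119 in juvenile controls and at 224, 225, 271 and 267 after LPS. Every LPS array was well above every control, and the rise of 1.003 ± 0.21 (adjusted p = 0.000872), or 2.00-fold, was the highest of the 9 genes in this comparison. A second, dim Tap1 probe set (group means of 16.5 to 21.4) gave 0.13 ± 0.05 here (adjusted p = 0.0861 over probe sets) and passed in none of the 16 comparisons. With the mean of both sets the rise of Tap1 was 0.57 (adjusted p = 0.000608). Tap2 was at 135, 152, 147 and 174 in controls and at 245, 213, 191 and 241 after LPS. It rose by 0.47 ± 0.12 (adjusted p = 0.00503), or 1.38-fold. Although Tap1 and Psmb9 share a promoter region, their changes with LPS were tested singly and not against each other.

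Of the loading genes, Tapbp (tapasin, which bridges the transporter and the class I molecule) had 1076, 1127, 1001 and 1338 in controls and 1505, 1359, 1428 and 1375 after LPS. The highest control came close to the lowest LPS array. Tapbp rose by 0.32 ± 0.10 (adjusted p = 0.0211), but its dimmer probe set gave 0.21 ± 0.13 (adjusted p = 0.304 over probe sets), and with the mean of both the call was lost, as it was without juvenile control replicate 1 or 3 or juvenile LPS replicate 1 (adjusted p up to 0.0802). B2m was at 7025, 6168, 6476 and 5725 in controls and 7160, 7045, 8134 and 8022 after LPS. Its lowest LPS array was just above its highest control, and the difference of 0.26 ± 0.10 did not pass (adjusted p = 0.0513). Erap1, which trims peptides in the endoplasmic reticulum, was at 142 ± 14 (SD, n = 4) and 149 ± 17 (SD, n = 4), a difference of 0.06 ± 0.10 (95% interval -0.14 to 0.26). Without juvenile MV replicate 2, which enters this comparison only through the shared estimate of spread, 8 of the 9 genes rose, Psmb9, B2m and Psme1 among them, when 9.69% of all genes did.

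**Figure D2:**
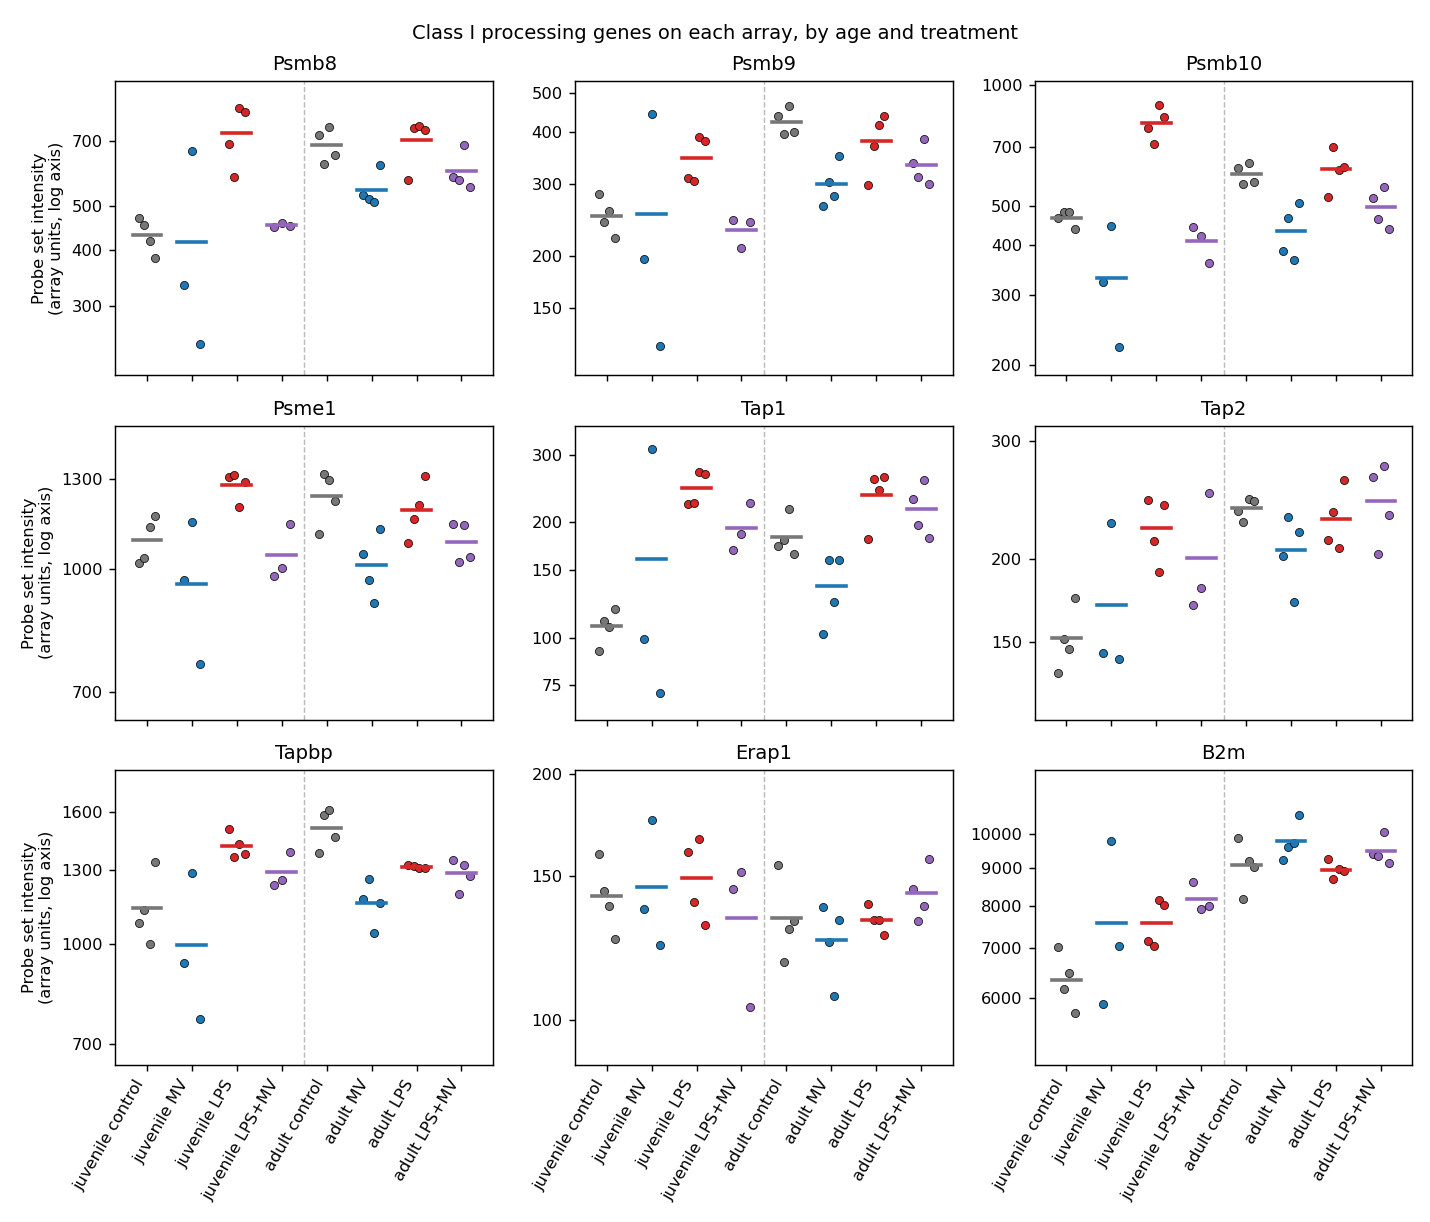
Intensity of each gene on each array (points, log axis) and the mean of each group (bar), with juvenile groups left and adult groups right of the dashed line. Juvenile LPS arrays lie above juvenile controls for each gene shown except Erap1, while adult LPS arrays overlap adult controls for each gene except Tapbp, where they lie below.

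The rest of the pathway moved in part. None of the 3 constitutive catalytic subunits and none of 17 tested genes of the 19S regulatory particle passed with LPS in juveniles, and 1 of 11 other 20S core genes rose (Psma6, 0.19 ± 0.06). Of 8 assembly and activator genes, only the chaperone gene Psmg1 passed (0.43 ± 0.08). Of 4 loading partners, the tapasin-related editor Tapbpl rose (0.71 ± 0.12), and of 5 peptidases Lap3 (0.33 ± 0.09) and Tpp2 (0.28 ± 0.09) did. Of 9 heavy chain genes, none rose and 1 fell, Fcgrt, the neonatal Fc receptor (-0.31 ± 0.10). Probe sets of classical heavy chains may bind several of these closely related transcripts. Of 14 regulators of class I genes, 7 rose and none fell, among them the interferon-induced activator Irf1 (1.75 ± 0.14), Rfx5 (0.91 ± 0.08), Irf9 (0.78 ± 0.09) and Stat2 (0.87 ± 0.12). Of 11 genes for interferons, their receptors and kinases, 9 rose, with Ptpn2 (1.47 ± 0.09), a phosphatase that limits this pathway, Ifngr2 (0.97 ± 0.07) and Jak2 (0.85 ± 0.08) as examples. The medians of these last lists were 0.31 and 0.43. Neutrophil markers moved in the same comparison: 3 of 8 rose, and their summed level was 1047 to 4097 in controls and 7079 to 8748 after LPS. Of 6 macrophage and dendritic cell markers 2 rose, and of 5 epithelial markers 1 fell. None of 6 T cell, 4 natural killer, 3 B cell and 4 endothelial markers passed. The part of these cells was not tested.

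Ventilation after LPS was accompanied by lower immunoproteasome transcripts in juveniles. Against LPS alone, LPS+MV lungs had lower Psmb10, Psmb8 and Psme1, so 3 of 9 genes fell and none rose. Over all genes 9.47% fell and 6% rose. The median of the 9 was -0.29, against -0.02 over all genes. Psmb10 was at 442, 420 and 360 with LPS+MV, all below the 715 to 890 seen with LPS alone. It fell by 0.93 on the log2 scale (SE 0.14, adjusted p = 5.64e-05), to 0.525 of its level. Psmb8 was at 450, 458 and 453, below the lowest LPS array at 582, and fell by 0.63 (SE 0.18, adjusted p = 0.0157). The Psmb8 call was lost without juvenile LPS replicate 3, when 1 of the 9 genes passed, and with a term for the Xist pattern (adjusted p up to 0.103). With LPS+MV, Psmb8 lay within the range of untreated juveniles, and Psmb10 lay within it on 1 array and below it on 2.

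Psme1 was at 980, 1005 and 1141 with LPS+MV and at 1197 to 1316 with LPS. It fell by 0.29 (SE 0.10, adjusted p = 0.0468), a call that was lost in 22 of 37 alternative analyses. Psmb9 was at 245, 209 and 242, below the lowest LPS array at 306, and its difference of -0.51 ± 0.21 did not pass (adjusted p = 0.0903). Without juvenile MV replicate 2 it passed (adjusted p = 0.00776), and 4 of the 9 genes fell, when 9.47% of all genes did. The transporter and loading genes differed less: Tap1 by -0.31 ± 0.23, Tap2 by -0.14 ± 0.13, Tapbp by -0.13 ± 0.11 and B2m by 0.11 ± 0.10, none of which passed. With a term for the Xist pattern, which is unequal in these groups, 1 of the 9 passed (Psmb10).

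Other proteasome genes were lower in the same comparison. Of the constitutive catalytic subunits, Psmb6 (-0.29 ± 0.07) and Psmb5 (-0.25 ± 0.07) fell and Psmb7 did not pass. Of 11 other core genes 7 fell, as did 8 of 17 genes of the 19S particle (Psmd6, -0.55 ± 0.08) and 3 of 8 assembly and activator genes (Psmg1, -0.64 ± 0.09, and Pomp, -0.30 ± 0.09, both assembly chaperones). No gene of these 4 lists rose. Of the 14 regulators, Rfx5 (-0.30 ± 0.08) and Rfxank (-0.29 ± 0.09) fell. Neutrophil markers were higher still, with 3 of 8 up and a summed level of 16040 to 17020, and their part was not tested.

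Against untreated juveniles, LPS+MV raised 2 of 9 genes and lowered none. Over all genes 10.8% rose and 20.5% fell. The 9 genes had a median change of 0.07, and all genes one of -0.05. B2m was at 8626, 7907 and 7995 with LPS+MV, above each control, and rose by 0.37 ± 0.10 (adjusted p = 0.00765). Tap1 was at 169, 187 and 225, also above each control, and rose by 0.69 ± 0.23 (adjusted p = 0.022). That call was lost without juvenile control replicate 1 or without juvenile LPS+MV replicate 2 or 3 (adjusted p up to 0.096), and with the mean of both Tap1 probe sets the rise was 0.42. Without juvenile MV replicate 2, Tap2 passed as well (0.33, adjusted p = 0.0276), so 3 of the 9 rose, when 10.9% of all genes did. The catalytic subunits were near control levels: Psmb8 differed by 0.07 ± 0.18, Psmb9 by -0.10 ± 0.21 and Psmb10 by -0.19 ± 0.14, and none passed. The classical heavy chain genes rose alongside B2m, H2-K1 by 0.51 ± 0.17 and H2-D1 by 0.38 ± 0.12, and 4 of 9 heavy chain genes passed. Irf1 rose by 2.16 ± 0.15. All 8 tested neutrophil markers rose in this comparison (median 2.17), with a sum of 1047 to 4097 in controls and 16040 to 17020 with LPS+MV, and 1 of 6 macrophage and dendritic cell markers rose. None of the T cell, natural killer, B cell, endothelial and epithelial markers passed, and the part of these cells was not tested.

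Ventilation alone lowered 1 of the 9 genes in juveniles, and none rose. Over all genes 6.45% fell and 4.42% rose. Psmb10 was at 322, 445 and 222 after MV and at 436 to 482 in controls, so the replicate that stands apart overlapped the controls and the other 2 did not. It fell by 0.51 (SE 0.14, adjusted p = 0.0194), a call lost without MV replicate 1 or 3 and with only the compared groups in the fit (adjusted p up to 0.216). The median of the 9 genes was -0.15, against -0.02 over all genes. Without replicate 2, 5 of the 9 fell, when 5.65% of all genes did. They were Psmb10 (-0.73, adjusted p = 0.00141), Psmb9 (-0.59, adjusted p = 0.0123), Psmb8 (-0.53, adjusted p = 0.0122), Tapbp (-0.40, adjusted p = 0.0094) and Psme1 (-0.33, adjusted p = 0.0382). Only 2 animals remain in that group, whose spread is then taken to be that of the other groups. With all 3 arrays, 2 of 8 neutrophil and 1 of 4 natural killer markers rose, to be read against the 4.42% of all genes. The summed natural killer markers were at 1578 on MV replicate 2, against 152 and 123 on the other 2 arrays.

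Against MV alone, LPS+MV raised Tapbp by 0.39 ± 0.12 (adjusted p = 0.0199) among the 9 genes, and none fell. Over all genes 6.95% rose and 7.78% fell. The call rests on a group with 1 array apart: Tapbp was at 934, 1288 and 766 with MV and at 1232, 1254 and 1386 with LPS+MV, and the groups overlapped through replicate 2. It was lost without MV replicate 1 or 3 or LPS+MV replicate 3. Without that array 6 of the 9 rose (B2m, Tap1, Tapbp, Psmb8, Psmb9 and Psmb10), when 6% of all genes did, with Tap1 at 0.95. The interaction of LPS and MV in juveniles, which asks whether their joint effect differs from the sum of both, passed for 0 of 9 genes in limma, with 1 at an unadjusted p under 0.05 and 0 in each of the 37 alternatives. Its estimates included -0.42 ± 0.20 for Psmb10 and -0.47 ± 0.25 for Psmb8. Over all genes 0.344% had a positive and 0.413% a negative interaction that passed.

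**Figure D3:**
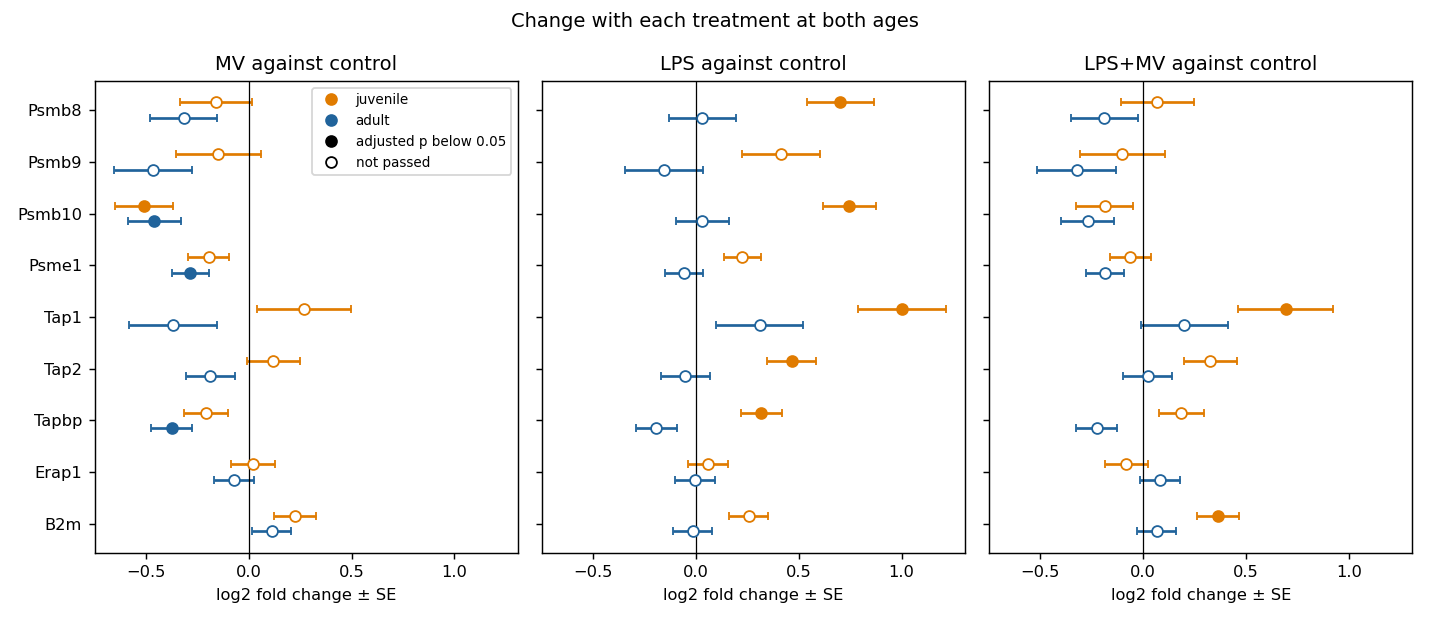
The log2 fold change ± SE of each gene against the control of its own age, for MV (left), LPS (middle) and LPS+MV (right), in juveniles (orange) and adults (blue). Filled points passed at an adjusted p under 0.05: 5 genes with LPS and 2 with LPS+MV in juveniles, all above zero, and 1 with MV in juveniles and 3 with MV in adults, all below zero.

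Untreated adult lungs already held more of most of these transcripts than juvenile lungs. Of the 9 genes, 6 were higher in adult controls and none was lower. Over all genes 15.2% were higher and 10.1% lower. The median of the 9 was 0.51, against 0.01 over all genes. Psmb9 was at 437, 396, 464 and 401 in adults, above each juvenile control, and was higher by 0.69 ± 0.19 (adjusted p = 0.00838). Psmb8 was at 720, 620, 749 and 651, higher by 0.63 ± 0.16 (adjusted p = 0.00533). Both catalytic subunits had control groups that did not overlap between the ages. Psmb10 was at 622, 566, 639 and 574 and also did not overlap, but its difference of 0.34 ± 0.13 did not pass (adjusted p = 0.0511). Without juvenile MV replicate 2 it did (adjusted p = 0.0193), and 7 of the 9 genes were higher, when 15.1% of all genes were.

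Tap1 was at 173, 179, 216 and 166 in adult controls, higher than in juveniles by 0.63 ± 0.21 (adjusted p = 0.0296). That call was lost without juvenile control replicate 1, 2 or 3 or adult control replicate 2 or 3 (adjusted p up to 0.0896). The dim Tap1 probe set gave 0.03 ± 0.05 (adjusted p = 0.772 over probe sets), and the mean of both 0.33 (adjusted p = 0.0378). Tap2 was at 236, 227, 245 and 244, higher by 0.56 ± 0.12 (adjusted p = 0.00105). On their brightest probe sets, both transporter genes thus had higher levels in every adult control than in any juvenile control. B2m was at 9879, 8179, 9195 and 9038, higher by 0.51 ± 0.10 (adjusted p = 0.000233), and its other probe set gave 0.40 ± 0.09. Tapbp was at 1382, 1580, 1611 and 1463, higher by 0.41 ± 0.10 (adjusted p = 0.00352). Psme1 (0.18 ± 0.09) and Erap1 (-0.07 ± 0.10) did not pass.

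The heavy chains H2-K1 (0.87 ± 0.15), H2-D1 (0.63 ± 0.11) and H2-M3 (0.44 ± 0.12) were higher in adults too, 3 of 9 tested. None of the 3 constitutive catalytic subunits passed, and 5 of 17 genes of the 19S particle were lower, among them Psmc6 (-0.32 ± 0.07) and Psmd12 (-0.33 ± 0.07). Of the 14 regulators, 4 were higher, Irf8 (0.96 ± 0.12), Rfx5 (0.52 ± 0.08), Irf1 (0.39 ± 0.14) and Rfxank (0.29 ± 0.08), and Creb1 was lower (-0.30 ± 0.10). Some leukocyte markers were higher in adults as well, when 15.2% of all genes were. They were 4 of 4 natural killer, 3 of 3 B cell, 6 of 8 neutrophil, and 2 of 6 macrophage and dendritic cell markers. Of 6 T cell markers 1 was higher, which is near the share of all genes. Of 5 epithelial markers 3 were higher. The summed natural killer markers were at 124 to 183 in juvenile and 417 to 666 in adult controls, and the summed B cell markers at 242 to 521 and 650 to 902. The summed neutrophil markers were at 4349, 2893, 17780 and 23700 in adult controls and at 1047 to 4097 in juveniles, so 2 adult controls lay far above the other 2, which were in or near the juvenile range. Their part in the class I differences was not tested.

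On their brightest probe sets, none of the 9 genes passed with LPS in adults. None of them passed in either direction by limma, and none had an unadjusted p under 0.05, when 13% of all genes rose and 23% fell. Alternative analyses passed 0 to 2 genes. Their median was -0.02, against -0.04 over all genes. Psmb10 was at 525, 701, 613 and 626 after LPS, spread around the adult controls, with a difference of 0.03 ± 0.13 (95% interval -0.23 to 0.30). Psmb8 was at 573, 746, 756 and 740, with a difference of 0.03 ± 0.16 (95% interval -0.30 to 0.37). These groups overlapped for both subunits. Psmb9 differed by -0.15 ± 0.19 and Psme1 by -0.06 ± 0.09. Tap1 was at 181, 259, 243 and 264, with 3 arrays above each control and 1 among them, and the difference of 0.31 ± 0.21 (95% interval -0.13 to 0.75) did not pass. Tapbp was at 1310 to 1321 on all 4 arrays, just below the lowest control at 1382, with a difference of -0.19 ± 0.10 (adjusted p = 0.141). Tap2 (-0.05 ± 0.12), B2m (-0.02 ± 0.10) and Erap1 (95% interval -0.20 to 0.20) did not pass. Other probe sets differed from this reading. The second Erap1 probe set fell by 0.41 (SE 0.11, adjusted p = 0.0073 over probe sets in limma). With the mean of both its probe sets, Tapbp fell by 0.33 (adjusted p = 0.0142 in limma).

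Of the 14 regulators of class I genes, 4 rose with LPS in adults, 1 fell and 9 did not pass, to be read against the 13% and 23% of all genes that rose and fell. Irf1 rose by 1.33 ± 0.14, Rfx5 by 0.45 ± 0.08 and Irf9 by 0.49 ± 0.09, while Rfxank fell (-0.41 ± 0.08). Of the 11 interferon pathway genes 5 rose, with Ptpn2 at 2.13 ± 0.09. Of the proteasome, 5 of 11 other core genes and 5 of 17 genes of the 19S particle rose, such as Psma6 (0.29 ± 0.06) and Psmc6 (0.46 ± 0.07), and the constitutive catalytic subunit Psmb7 fell (-0.21 ± 0.07). Of the loading partners Tapbpl rose (0.38 ± 0.12), and the chaperones Calr (-0.42 ± 0.10) and Pdia3 (-0.32 ± 0.10) fell. The probe set shared by Psme2b and Psme2, which is not among the 9, rose by 0.39 ± 0.11 (adjusted p = 0.00641 over probe sets). Of the cell type markers, 5 of 8 for neutrophils (median 1.14) and 1 of 6 for macrophages and dendritic cells rose, and 3 of 4 endothelial (median -0.31), 3 of 5 epithelial (median -0.35) and 1 of 3 B cell markers fell. Their part was not tested.

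The difference between the ages in the response to LPS was tested directly. Of the 9 genes, 2 had a response that was more negative in adults and none one that was more positive. Over all genes 2.38% had a response more negative in adults and 1.31% more positive. Psmb10 had an interaction of -0.71 ± 0.18 (adjusted p = 0.0244), from 0.74 in juveniles and 0.03 in adults. Tapbp had -0.51 ± 0.14 (adjusted p = 0.0403), from 0.32 and -0.19. Tapbp's call was lost in 16 of the 37 alternatives and that of Psmb10 in 3, without juvenile LPS replicate 3, adult control replicate 3 or adult LPS replicate 1, when none of the 9 passed. Without juvenile MV replicate 2, 5 of the 9 passed, with Tap1, Tap2 and Psmb8 added, when 2.54% of all genes did. The estimates were below zero for the others too, and none of them passed: -0.69 ± 0.30 for Tap1, -0.67 ± 0.23 for Psmb8, -0.57 ± 0.27 for Psmb9, -0.52 ± 0.17 for Tap2, -0.28 ± 0.13 for Psme1 and -0.27 ± 0.13 for B2m. Their median with both passing genes and Erap1 was -0.52, against -0.02 over all genes. Of the 14 regulators, 4 had a response that was more negative in adults, Irf8 (-0.82 ± 0.17), Stat2 (-0.64 ± 0.16), Rfx5 (-0.46 ± 0.11) and Rfxank (-0.45 ± 0.11). The response of Irf1 was not among those that passed. The 2 LPS comparisons do not start from like levels, since adult controls were higher for 6 of the genes.

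After ventilation alone, 3 of the 9 genes were lower in adults: Psmb10, Psme1 and Tapbp. None rose. Over all genes 24.3% fell and 7.15% rose, so a fall was common in this comparison. The median of the 9 was -0.32, against -0.06 over all genes. Psmb10 was at 386, 465, 367 and 508, below each adult control, and fell by 0.46 (SE 0.13, adjusted p = 0.00808). Tapbp was at 1175, 1258, 1040 and 1156, also below each control, and fell by 0.37 (SE 0.10, adjusted p = 0.00562). Psme1 was at 1044, 970, 908 and 1126, overlapping the controls through 1 array on each side, and fell by 0.28 (SE 0.09, adjusted p = 0.0195), a call lost without adult control replicate 2 or 3 or adult MV replicate 3. Tapbp's dimmer probe set gave -0.16 ± 0.13 (adjusted p = 0.415 over probe sets), and with the mean of both its call was lost.

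Psmb9 was at 266, 303, 281 and 350 with MV, below each adult control, and its difference of -0.46 ± 0.19 did not pass (adjusted p = 0.0646). Psmb8 (-0.32 ± 0.16) and Tap1 (-0.37 ± 0.21) also had groups without overlap that did not pass. Tap2 (-0.19 ± 0.12), Erap1 (-0.07 ± 0.10) and B2m (0.11 ± 0.10) were nearer to control. With the mean of its 2 probe sets, however, Erap1 passed (-0.24, adjusted p = 0.0487 in limma). Xist was high on each adult MV array and on no adult control, so ventilation and this pattern cannot be told apart in this comparison. With a term for Xist, estimated from groups in which it varied, 0 of the 9 genes passed. Without juvenile MV replicate 2, 6 of the 9 fell, with Tap1, Psmb8 and Psmb9 added, when 24.2% of all genes did. With only the compared groups in the fit 6 passed as well, a setting for which the share of all genes was not computed. All 3 tested B cell markers fell (median -0.83), with a sum of 650 to 902 in controls and 262 to 415 with MV, and the regulators Irf8 (-0.64 ± 0.12), Rfxank (-0.32 ± 0.08), Rfx5 (-0.26 ± 0.08) and Nfyc (-0.19 ± 0.07) fell. Of the other markers, 2 of 5 epithelial (median -0.35), 1 of 4 endothelial and 1 of 8 neutrophil markers fell, and 1 each of the neutrophil, T cell, and macrophage and dendritic cell markers rose. The part of these cells was not tested. The constitutive catalytic subunits did not pass, and 2 of 11 core and 5 of 17 genes of the 19S particle rose while 1 of the latter fell. The age difference in the response to MV passed for 0 of 9 genes in limma, with 0 at an unadjusted p under 0.05 and 0 to 1 over the alternatives (1 without juvenile MV replicate 3). Over all genes 4.85% were more negative and 1.3% more positive in adults.

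With LPS+MV in adults, 0 of 9 genes passed against control in limma, and 2 had an unadjusted p under 0.05, when 14.8% of all genes rose and 27.3% fell. Alternatives passed 0 to 3. Psmb9 (-0.32 ± 0.19), Psmb10 (-0.27 ± 0.13) and Tapbp (-0.23 ± 0.10) had all 4 LPS+MV arrays below all controls without passing. These 3 fell without juvenile MV replicate 2, when 27.2% of all genes did, and 2 genes passed without juvenile MV replicate 3. Psmb10 was at 524, 462, 558 and 436, and Psmb9 at 337, 312, 386 and 301. Tap1 was at 230, 197, 258 and 182, a difference of 0.20 ± 0.21. Xist was high on 3 of 4 adult LPS+MV arrays and on 0 of 4 arrays of controls, so treatment and this pattern are hard to tell apart. Irf1 rose by 1.50 ± 0.14 and 7 of 14 regulators rose in this comparison, and 3 of 3 B cell (median -0.76), 3 of 4 endothelial (median -0.43) and 3 of 5 epithelial markers (median -0.53) fell. Of the neutrophil markers 3 of 8 rose, as did 1 of 6 for macrophages and dendritic cells, and the part of these cells was not tested. The difference between the ages passed for 0 of 9 genes, with 2 at an unadjusted p under 0.05 and 0 to 1 over the alternatives (1 without juvenile control replicate 4), when 0.848% of all genes were more positive in adults and 1.25% more negative.

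Against LPS alone, adult LPS+MV passed for 0 of 9 genes, with 1 at an unadjusted p under 0.05 and 0 in every alternative, when 3.72% of all genes rose and 3.36% fell. Psmb10 differed by -0.30 ± 0.13 (adjusted p = 0.161). Against MV alone it passed for 0 of 9, with 1 at an unadjusted p under 0.05 and 0 to 1 over the alternatives, when 12% of all genes rose and 5.36% fell. Tap1, that gene, was at 102, 160, 124 and 160 with MV and higher on each LPS+MV array, with a difference of 0.57 ± 0.21 (adjusted p = 0.0655). It passed without juvenile MV replicate 2, when again 12% of all genes rose, or without replicate 3 of that group. The interaction of LPS and MV in adults passed for 0 of 9, with 1 at an unadjusted p under 0.05 (Tapbp, 0.34 ± 0.14) and 0 to 1 over the alternatives, when 5.51% of all genes had a positive and 1.66% a negative one.

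Each inducible catalytic subunit was set against the constitutive subunit whose place it takes, as the difference of their log2 values on the same array. Psmb8 replaces Psmb5, Psmb9 replaces Psmb6 and Psmb10 replaces Psmb7. With LPS in juveniles, this difference was larger than in controls by 0.84 for Psmb10, by 0.64 for Psmb8 and by 0.31 for Psmb9, each with an exact two-sided permutation p = 0.0286. With MV in adults it was lower, by -0.47 for Psmb9, -0.36 for Psmb10 and -0.35 for Psmb8, each with an exact permutation p = 0.0286. In both cases no treated array overlapped a control. With LPS in adults the shifts were 0.24 for Psmb10, -0.03 for Psmb8 and -0.26 for Psmb9 (exact permutation p = 0.114, 0.714 and 0.0857). With LPS+MV in juveniles Psmb8 was 0.26 above its counterpart's change (exact permutation p = 0.0286), while Psmb9 differed by 0.09 (p = 0.4, exact permutation) and Psmb10 by -0.16 (p = 0.171, exact permutation). With LPS+MV in adults the shifts were -0.36 for Psmb9, -0.21 for Psmb8 and -0.20 for Psmb10 (exact permutation p = 0.0286, 0.0571 and 0.257). With MV in juveniles they were -0.57 for Psmb10, 0.03 for Psmb8 and 0.08 for Psmb9 (exact permutation p = 0.0286, 0.971 and 0.914). A p of 0.0286 is the smallest these group sizes allow. Of the 18 tests, 9 reached it and 0 passed after Benjamini-Hochberg adjustment, where the smallest value was 0.0571.

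**Figure D4:**
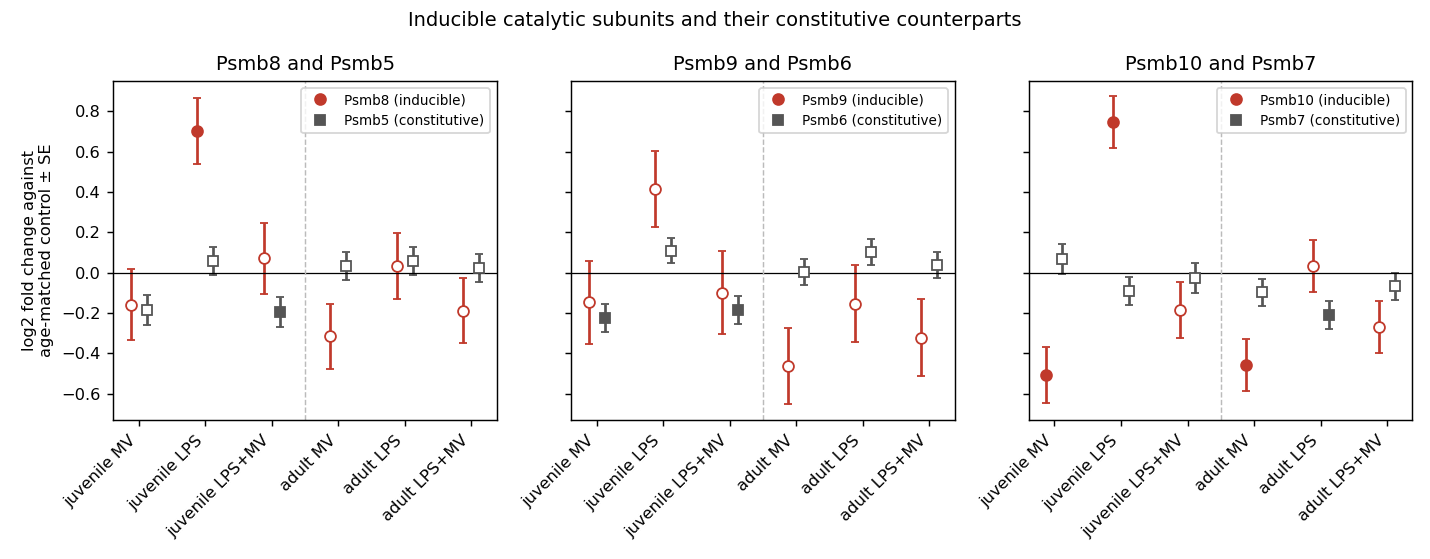
The log2 fold change ± SE against the control of the same age for each inducible subunit (red circles) and its constitutive counterpart (grey squares), with juvenile comparisons left and adult comparisons right of the dashed line; filled symbols passed at an adjusted p under 0.05. With LPS in juveniles Psmb8 and Psmb10 stand at 0.70 and 0.74 while Psmb5 and Psmb7 stand at 0.06 and -0.09.

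The order of the groups differed among the genes. Group means of Psmb10 ran from 805 in juvenile LPS, which did not overlap with the next group, adult LPS at 616, down to 330 in juvenile MV, a ratio of 2.44. Adult LPS and adult control (600) overlapped, as did adult LPS+MV (495), juvenile control (466), adult MV (431), juvenile LPS+MV (407) and juvenile MV, each with the next. Tap1 was highest in juvenile LPS (247) and lowest in juvenile control (107), a ratio of 2.31, and each group overlapped with its neighbour in the order. Psmb8 and Psme1 were also highest in juvenile LPS, while Psmb9 and Tapbp were highest in adult controls (425 and 1509) and Tap2 in adult LPS+MV (244). The group means of B2m were ordered by age, at 8959 to 9800 in the 4 adult groups and 6349 to 8176 in the juvenile groups. Single arrays overlapped between the ages: adult controls reached down to 8179, while juvenile LPS+MV reached 8626 and juvenile MV, through 1 array, 9795. Erap1 differed by a ratio of 1.19 between its highest and lowest group on its brightest probe set. The second Erap1 probe set varied more, from 83.0 in juvenile LPS+MV to 53.4 in adult LPS. Across the 8 group means, Pearson's r with the mean profile of the 9 genes, each of which enters that mean, was 0.97 for Psmb8 and between 0.85 and 0.90 for Psmb9, Tapbp, Tap2, Psmb10, Psme1 and Tap1. It was 0.48 for B2m and 0.07 for Erap1. These 8 points share arrays between genes and describe likeness only.

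The genes outside the list whose 8 group means were most like that mean profile were Fcer2a (r = 0.986), the low affinity IgE receptor of B cells, B9d2 (r = 0.967), Npas2, a transcription factor of the circadian clock (r = 0.963), Fndc10 (r = 0.963) and Flot1 (r = 0.962). They were picked for this likeness out of all other genes tested, so their changes are not tests of it. Fcer2a rose with LPS in juveniles (0.98 ± 0.13) and fell with MV in adults (-0.66 ± 0.13).

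Of the other probe sets that passed the filter, those of Tap1 are given above. The second B2m probe set passed where the first did, between the controls and with LPS+MV in juveniles (0.33 ± 0.10). A second Erap1 probe set, unlike the first, was lower in adults after MV (-0.40 ± 0.11, adjusted p = 0.01 over probe sets) and after LPS (-0.41 ± 0.11, adjusted p = 0.0073), with means of 80.8 ± 8.2 (SD, n = 4) in adult controls, 53.8 ± 11.5 (SD, n = 4) with MV and 53.4 ± 11.4 (SD, n = 4) with LPS. On this second set the interaction of LPS and MV in adults also passed (0.54 ± 0.16, adjusted p = 0.0447 over probe sets). The probe sets of Erap1 therefore disagree in adults. The dimmer Tapbp probe set fell with LPS in adults (-0.48 ± 0.13, adjusted p = 0.00733), where the brighter gave -0.19 ± 0.10.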

How the data were processed

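Total RNA of whole lung from 30 mice was hybridized to Affymetrix mouse 430 2.0 arrays, per the labels' protocols. The deposited values are probe set intensity on a linear scale, from 4.5 to 25073. MAS5 is the tool named in the submitters' processing notes; how the authors normalized is not given in the sources used here. Array medians were 21.6 to 22.8 and upper quartiles 89.1 to 111.

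Of 45037 probe sets, 34945 carried 1 gene symbol in the platform annotation, 932 several and 9160 were not listed there; 34741 matched a RefSeq gene ID (GRCm38.p6 table, names only). The filter kept 24825 probe sets, those whose intensity exceeded the median of the array on 3 or more arrays, with the brightest per gene used. limma 3.58.1 (R 4.3.3; lmFit, eBayes with trend, 22 residual degrees of freedom) gave 16 comparisons on log2(intensity + 32), two-sided. The code was tested on simulated data. Replicates are separate animals. The labels do not say that replicate numbers pair animals. Deviations of arrays with the same number had correlations of 0.119, 0.208 and 0.328 in juvenile LPS+MV against MV. In each other comparison of groups at least 1 pair was under 0.1. These values do not settle whether animals were paired. Of the listed genes' 16 probe sets, 13 passed the filter. All listed genes are named, and of each related gene list up to 4 with the smallest p, others with their values. Members and lists were chosen with earlier results of these data known. Alternatives were a pseudocount of 1, quantile normalization, the mean over probe sets, no filter, only the compared groups, the replicate block, a term for Xist, and each array left out. Figures used matplotlib 3.10.9.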

Additional observations from a re-analysis of the deposited data

Results flagged for a closer look

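Psmb8 on adult LPS replicate 1 was at 573, below the other 3 arrays of its group at 740 to 756. The gap to the nearest array was 0.922 of the group's range, above Dixon's critical value of 0.829. Of 54 groups of 4 arrays checked, this was 1, and chance gives about 1 in 20.

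The response to LPS differed between the ages for Psmb10 (-0.71 on the log2 scale, adult minus juvenile) and for Tapbp (-0.51), both by limma's interaction term. Without adult LPS replicate 1 neither call was kept.

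The probe set listed for both Psme2b and Psme2, which the comparisons do not use, rose by 0.73 with LPS in juveniles and by 0.39 in adults (adjusted p = 0.00641 over probe sets), and with MV in adults it fell by 0.30 (adjusted p = 0.039). Its intensity was 1132 ± 131 (SD, n = 4) in juvenile controls, 1886 ± 103 (SD, n = 4) with LPS and 1226 ± 138 (SD, n = 3) with LPS+MV. In adults it was 1229 ± 97 (SD, n = 4) in controls, 1625 ± 175 (SD, n = 4) with LPS and 994 ± 87 (SD, n = 4) with MV. Which of the genes it measures cannot be told apart.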

How the results depend on the processing

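Of 144 changes (9 genes in 16 comparisons), 23 passed. Of these, 11 passed under all 37 alternatives, 12 were lost under at least 1, 34 others passed under at least 1, and none reversed with a call. Leaving out each array in turn, the number of the 9 genes that passed ranged over 5 to 7 for adult against juvenile control, 0 to 5 for juvenile MV, 4 to 8 for juvenile LPS, and 1 to 3, 1 to 4 and 0 to 6 for juvenile LPS+MV against control, LPS and MV. It ranged over 2 to 6 for adult MV, 0 to 3 and 0 to 1 for adult LPS+MV against control and MV, and 0 to 5, 0 to 1 and 0 to 1 for the age difference with LPS, LPS+MV and MV. It was 0 throughout for adult LPS, adult LPS+MV against LPS and both interactions of LPS and MV. With only the compared groups in the fit, counts were 0 for juvenile MV and for juvenile LPS+MV against MV, 6 for adult MV, 2 for adult LPS, 3 and 1 for adult LPS+MV against control and MV, 1 for the adult interaction and 6 for the age difference with LPS. With the Xist term they were 1 for juvenile LPS+MV against LPS, 0 for adult MV and 1 for the age difference with LPS, which was also 1 without the filter. Quantile normalization gave 1 for adult LPS and 2 for adult LPS+MV against control. The mean over probe sets gave 0 for juvenile LPS+MV against MV and 1 for adult LPS. The share of all genes that passed was not computed under these settings. For arrays left out, it was computed only without juvenile MV replicate 2. The other counts therefore cannot be set against it. Juvenile MV replicate 2 set the highest count of each range that has one of 5, 6 or 8, and the 3 for adult LPS+MV against control. The cause was not tested. With the replicate block, 1 gene passed in juvenile LPS+MV against MV, as without it. The block left 2 of 3 for juvenile LPS+MV against LPS and gave 3 in place of 2 against control. Whether the numbers pair the animals is not known. Group size sets the smallest p of the 18 subunit tests, so their count of 0 under the alternatives says nothing of stability. Dim genes are limited by array background, and the 2 arrays left in juvenile MV without replicate 2 give little precision.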
